A study of Mus musculus with 40 samples.

Results

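The genes described here are 40 genes of the cell division cycle, found by symbol among the 21347 genes of the deposited expression table. They are 14 genes of DNA replication, 18 genes of mitosis and 8 regulators of the cycle. All 40 reached a signal of 1 per M in each of the 40 libraries, where per M means reads for each mega-read of scaled library size. All 40 were therefore among the 14701 genes tested, and no member was lost to the filter on low values.

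A dividing cell first licenses its origins by loading the MCM helicase, then copies its DNA, and then separates the copies in mitosis. Transcription follows this order. E2F factors, released when cyclin D and cyclin E kinases inactivate the retinoblastoma protein, drive replication genes, while mitotic genes peak later through promoter elements named CCAAT boxes and CHRs (cell cycle genes homology regions). The inhibitors p21 (Cdkn1a) and p27 (Cdkn1b) restrain the kinases. In a fast-growing carcinoma line such as 4T1 these genes are expected to be abundant, whereas resting lymphocytes hold high p27 and little of the replication and mitotic machinery.

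The libraries hold RNA of wells of 4T1, a carcinoma line that arose in the mammary gland of a BALB/c mouse, grown with or without T cells of C57Bl6 spleens. Collagen I had 3 co-cultures and 4 cultures of 4T1 alone, and vitronectin had as many of each. Collagen IV had 4 of each kind. Fibronectin had 4 co-cultures and 5 cultures of 4T1 alone, and so had uncoated polystyrene. Coats were laid down at 250 µg/ml, carcinoma cells were seeded at 10000 and T cells at 80000 per cm2, and interleukin 2 at 30 U/mL was given for 24 h to every well, with or without T cells. Floating and attached cells were pooled for RNA, so a co-culture library mixes carcinoma and T cell transcripts. T cells on their own were not analysed here. The libraries came from 5 experiments. Experiment 1 held fibronectin and uncoated wells only, and experiment 3 held 1 co-culture, on collagen IV.

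Depth, recovered from the deposited values, was 18.95 to 47.73 M assigned reads per library, and 239.13 M in the collagen IV co-culture of experiment 5. Co-cultures of experiment 4 stood apart from all others. The summed signal of 22 T cell markers was 1328 to 4026 per M there, against 25.4 to 385 per M in the 13 other co-cultures and 3.00 to 6.32 per M in 4T1 alone. The 21 carcinoma epithelial markers in the table summed to 2086 to 3149 per M in co-cultures of experiment 4, 3170 to 4528 per M in other co-cultures and 3369 to 4773 per M in 4T1 alone. Sums over 10 B cell markers were 46.2 to 143, 1.05 to 15.02 and 0.0592 to 0.351 per M in the same order, with Ighd at 0 in 4T1 alone. Those over 8 erythroid and platelet markers were 10.8 to 51.7, 1.02 to 2.15 and 0.788 to 1.89 per M, and those over 5 macrophage markers 11.4 to 16.5, 9.79 to 14.4 and 8.37 to 14.6 per M. The part of these other cells in the results below was not tested. The T cell averages over all experiments are therefore given with and without experiment 4. In that experiment the label tag R3 marks all 5 libraries of 4T1 alone and no co-culture, so whatever the tag stands for and the T cells cannot be told apart there. In experiment 2 the tag R2 marks all 5 co-cultures and 1 library of 4T1 alone, and 4 of 4T1 alone carry no tag. Tag and T cells are thus hard to tell apart in that experiment too.

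The promoters of the members were searched for the elements named above. RefSeq windows of GRCm38.p6, from 250 bases before to 50 after a transcription start, were found for 31 of the 40 genes. An E2F word on either strand (TTCGCGC, or its variant TTGGCGC, or the variant TTCCCGC, or the variant TTGCCGC) was in 9 of 13 windows of replication genes, 3 of 14 of mitotic genes and 9.57% of all 32851 windows. A CCAAT box together with a CHR (TTTGAA or TTTAAA, on either strand) was in 3 of 13 windows of replication genes, 12 of 14 of mitotic genes and 10.7% of all windows. Words of these motifs may overlap one another, and a match describes the letters only. The 5 stretches below, each the 150 bases before the start, stand for the groups whose values follow. Mcm6 stands for E2F words in a replication gene. Cdc20 and Plk1 were lower in co-culture in experiment 4 by more than Cdk1, and Kif11 did not pass the test, while all 4 hold a CCAAT box and a CHR. Capitals mark every E2F word, CHR and CCAAT box, read on the gene's own strand, so ATTGG is a CCAAT box and TTCAAA a CHR on the opposite strand.
Mcm6 promoter (chr1:128359706-128359855, minus strand): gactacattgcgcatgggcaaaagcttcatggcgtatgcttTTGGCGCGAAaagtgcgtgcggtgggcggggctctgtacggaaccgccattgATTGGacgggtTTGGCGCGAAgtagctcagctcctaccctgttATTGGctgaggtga
Cdc20 promoter (chr4:118437344-118437493, minus strand): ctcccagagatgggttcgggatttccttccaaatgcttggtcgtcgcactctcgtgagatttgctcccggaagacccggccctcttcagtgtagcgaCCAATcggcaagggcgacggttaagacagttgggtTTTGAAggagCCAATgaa
Plk1 promoter (chr7:122159285-122159434, plus strand): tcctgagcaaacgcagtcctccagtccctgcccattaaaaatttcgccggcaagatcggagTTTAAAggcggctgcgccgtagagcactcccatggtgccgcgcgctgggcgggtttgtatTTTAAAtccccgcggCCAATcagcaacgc
Cdk1 promoter (chr10:69352913-69353062, minus strand): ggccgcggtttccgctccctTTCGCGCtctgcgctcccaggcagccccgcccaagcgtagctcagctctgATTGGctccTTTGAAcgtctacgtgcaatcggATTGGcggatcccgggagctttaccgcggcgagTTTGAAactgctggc
Kif11 promoter (chr19:37376232-37376381, plus strand): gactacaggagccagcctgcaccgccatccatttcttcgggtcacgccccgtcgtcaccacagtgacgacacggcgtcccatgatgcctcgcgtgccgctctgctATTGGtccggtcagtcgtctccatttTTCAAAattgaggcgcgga

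In 4T1 alone the level of the members differed widely from gene to gene. Per kilobase of merged exons, the highest level among the members was that of Ccnd1, encoding cyclin D1, at 259.9 per M per kb, and Pcna, the sliding clamp of DNA polymerase, followed at 123 per M per kb. Mcm5, a helicase subunit, averaged 105 per M per kb, Rrm2, the small subunit of ribonucleotide reductase, 97.7, Top2a, the topoisomerase that untangles chromosomes, 96.6, and Cdc20, the activator of the anaphase-promoting complex, 96.6. The lowest was Cdkn1a at 2.88 per M per kb. Among replication and mitotic genes Cdc25c, Ung and Gins2 were lowest, at 4.08, 5.26 and 6.67 per M per kb. The SD of log2(per M + 1) over the 22 libraries had a median of 0.0845 over replication genes, 0.0984 over mitotic genes and 0.142 over regulators, against 0.138 over all genes tested. These are descriptions of level and spread, with no test, and the genes compared were not matched for level.

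With T cells both gene sets were lower in experiment 4 on the deposited scale, and their mean change was smaller in size in the other experiments. Each library was summarised by the mean log2(per M + 1) of the 14 replication genes and of the 18 mitotic genes. The replication level was 6.89 to 7.09 in the 5 co-cultures of experiment 4, against 7.27 to 7.33 in 4T1 alone of that experiment. The mitotic level was 6.80 to 7.22 in the same co-cultures, against 7.30 to 7.42 in 4T1 alone. Neither pair of ranges overlaps. Within pairs of wells on the same substrate, the replication level differed by −0.44 to −0.19 in experiment 4 and by −0.11 to 0.03 in the 13 pairs of the other experiments. The mitotic level differed by −0.56 to −0.13 in experiment 4 and by −0.10 to 0.16 in the 13 other pairs. The rise of 0.16, on uncoated plastic in experiment 5, was no smaller in size than the falls of some pairs of experiment 4. Over the 13 other pairs the mean change was −0.03 in the replication level and −0.002 in the mitotic level. Replication minus mitotic, the contrast between the sets, changed by −0.14 to 0.12 in the 5 pairs of experiment 4, being negative in 3 of them, so the order of the sets varied among substrates. In the 13 other pairs that contrast changed by −0.27 to 0.09. On a scale set by carcinoma epithelial markers, given below, the direction in experiment 4 turned round.

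**Figure D1:**
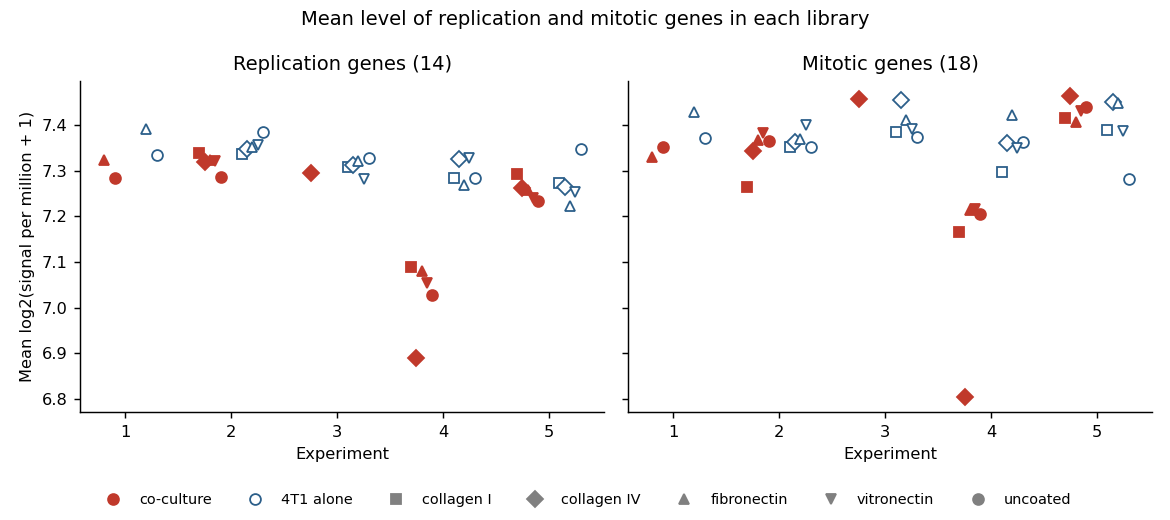
Mean log2(signal per M + 1) of the 14 replication genes (left) and the 18 mitotic genes (right) in each of the 40 libraries, by experiment. Filled red symbols are co-cultures, open blue symbols 4T1 alone, and shapes are substrates. The 5 co-cultures of experiment 4 lie below all other libraries in both panels on this scale, lowest on collagen IV; scaled to carcinoma epithelial markers, 10 of the 14 and 15 of the 18 genes passed as higher in co-culture and none as lower.

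In experiment 4, 30 of the 40 members passed an adjusted p of 0.05 (limma, Benjamini-Hochberg over all 14701 genes, from a model with terms for substrate, experiment and a T cell effect in each experiment). Of these, 29 were lower and 1 was higher in co-culture. Of all genes tested 64.3% passed in that experiment, 32% as lower, and this is the background against which the members' share stands. By role, 13 of 14 replication genes and 12 of 18 mitotic genes were lower, and among the 8 regulators 4 were lower and 1 was higher. The median log2 difference was −0.29 over replication genes, −0.24 over mitotic genes and −0.12 over regulators, against −0.01 over all genes. Co-cultures lay wholly below 4T1 alone for 12 replication and 9 mitotic genes, beside 18.3% of all genes.

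Gins2, a subunit of the GINS complex that completes the replicative helicase, fell most among replication genes. It had 22.1, 15.2, 20.3, 19.7 and 18.6 per M in co-cultures on collagen I, collagen IV, fibronectin, vitronectin and uncoated plastic, against 29.6, 26.0, 26.1, 29.5 and 26.7 per M in 4T1 alone on the same substrates. The groups did not overlap, and the collagen IV co-culture was lowest. The log2 difference was −0.51 ± 0.06 (SE; adjusted p = 2.9e-08, limma). Reads of Gins2 may include reads of Gse1, whose exons overlap its own.

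Mcm5 had 330.1, 273, 327, 312 and 314 per M in co-cultures in that order of substrates, against 395, 414, 388, 413 and 400.0 per M in 4T1 alone. No co-culture reached the lowest culture of 4T1 alone. The difference was −0.37 ± 0.04 (SE; adjusted p = 4.2e-09, limma), and that of Mcm2, another helicase subunit, was −0.37 ± 0.04 (SE). Mcm3 and Mcm7, also in the helicase ring, differed by −0.31 and −0.28, and Mcm6 by −0.18. Mcm4 stands outside this pattern. It had 201, 186, 209, 215 and 210 per M in co-cultures, against 204, 206, 210, 207 and 205 per M in 4T1 alone. These values overlap, and Mcm4 did not pass (−0.02 ± 0.04, SE; adjusted p = 0.684, limma).

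The licensing factors Cdc6 and Cdt1, which load the helicase onto origins, fell by 0.33 and 0.30 on the log2 scale. Ung, which removes uracil from DNA, fell by 0.35. The enzymes of nucleotide supply fell less. Rrm2 fell by 0.24, Tyms, thymidylate synthase, by 0.19, and Rrm1, the large subunit of ribonucleotide reductase, by 0.15. Pcna had 265, 223, 264, 261 and 249.9 per M in co-cultures, against 279, 285, 284, 295 and 294 per M in 4T1 alone, a difference of −0.19 ± 0.04 (SE; adjusted p = 0.000148, limma).

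Among mitotic genes Cdc20 fell most. It had 132, 119, 148, 135 and 132 per M in co-cultures on collagen I, collagen IV, fibronectin, vitronectin and uncoated plastic, against 174, 192, 184, 188 and 182 per M in 4T1 alone. All co-cultures were below all cultures of 4T1 alone, and the difference was −0.46 ± 0.04 (SE; adjusted p = 1.2e-10, limma). Part of its exons is shared with Elovl1. Ccnb2, a partner cyclin of CDK1, had 102, 75.4, 107, 105 and 98.9 per M in co-cultures, against 125, 128, 129, 129 and 130 per M in 4T1 alone (−0.40 ± 0.05, SE; adjusted p = 3.5e-08, limma). The kinases of mitotic entry and spindle assembly fell alongside, Plk1 by 0.37, Aurkb by 0.34 and Aurka by 0.32. So did Bub1b, a spindle checkpoint kinase, by 0.34, the kinesin Kif20a by 0.32, the spindle factor Tpx2 by 0.28 and Birc5, encoding survivin, by 0.28.

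Of the other mitotic genes 3 passed and 6 did not. Cdk1, the mitotic kinase, had 249, 165, 236, 235 and 229 per M in co-cultures, against 248, 265, 261, 249 and 256 per M in 4T1 alone (−0.21 ± 0.07, SE; adjusted p = 0.00594, limma). Its collagen IV co-culture was far below the others, and the collagen I co-culture lay within the range of 4T1 alone. Mki67, the proliferation marker Ki-67, differed by −0.20 and Cenpe, a kinetochore motor, by −0.19, both past the threshold. Cenpf at −0.18, Top2a at −0.14, Cdc25c, the phosphatase that activates CDK1, at −0.12, Kif11 at −0.08, Ccnb1, the main mitotic cyclin, at −0.07 and Bub1 at 0.03 did not pass.

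Of the regulators, Cdkn1b was the member that rose. It had 88.6, 188, 100 and 113 per M in co-cultures on collagen I, collagen IV, fibronectin and vitronectin and 109 per M on uncoated plastic, against 62.5, 50.4, 50.5, 56.3 and 63.0 per M in 4T1 alone. All co-cultures lay above all cultures of 4T1 alone, and the log2 difference was 1.02 ± 0.11 (SE; adjusted p = 1.7e-09, limma). The library with the highest Cdkn1b, the collagen IV co-culture, also had the highest T cell marker sum of all libraries, 4026 per M. In bulk RNA fewer cells of a type and less RNA per cell cannot be told apart, and the part of T cell transcripts in these differences was not tested.

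E2f1, a driver of replication genes, had 40.7, 33.3, 37.5, 38.5 and 39.0 per M in co-cultures, against 50.2, 50.6, 44.1, 51.7 and 46.9 per M in 4T1 alone. These groups did not overlap (−0.36 ± 0.05, SE; adjusted p = 1.8e-07, limma). Ccnd1 had 992, 739, 971, 1080 and 1084 per M in co-cultures, against 1232, 1132, 1117, 1346 and 1294 per M in 4T1 alone, again without overlap (−0.34 ± 0.05, SE; adjusted p = 1.6e-07, limma). Ccna2, the cyclin of DNA synthesis and early mitosis, fell by 0.18. Cdkn1a fell by 0.35 (adjusted p = 0.018, limma), but its groups overlapped and edgeR on the recovered reads gave an adjusted p of 0.0642 (9.98e-05 to 0.727 over the 6 alternatives tried). Ccne1 at −0.04, Ccne2 at 0.19 and Cdk2 at −0.06 did not pass, and Ccne2 passed with edgeR as higher (0.23, adjusted p = 0.0415).

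The falls of experiment 4 were deepest in 1 library. The collagen IV co-culture was the lowest of the 5 co-cultures for 34 of the 40 members, including all 18 mitotic genes, and the lowest of all 40 libraries for 33. Without it 26 members passed, 24 of them lower and 2 higher, and the share of all genes in that fit is not given here. The median log2 difference was then −0.25 over replication genes and −0.16 over mitotic genes. Rrm1 at −0.08, Mki67 at −0.13, Cdk1 at −0.11, Cenpe at −0.10 and Cdkn1a at −0.20 no longer passed, and Ccne2 did. Tpx2 at −0.18, Tyms at −0.13 and Ccna2 at −0.10 still passed, but with the collagen IV co-culture their differences were over 1.5 times as large.

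Direction in experiment 4 depended on the scale. Carcinoma epithelial markers fell too, 21 of 21, with summed levels given above. When each library was rescaled to those markers, which moved the median of all genes to 0.41, 31 members passed and all 31 were higher, with medians of 0.17 over replication genes and 0.22 over mitotic genes. On that scale Cdc20 and Gins2 were the members that stayed below 0, at −0.003 and −0.06. The medians of all 3 roles were below the median of all genes on either scale. Quantile normalisation, with a median of −0.16 over all genes, gave 29 members, 28 lower and 1 higher. Of all genes 80.7% passed under the first scaling and 75.7% under the second.

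**Figure D2:**
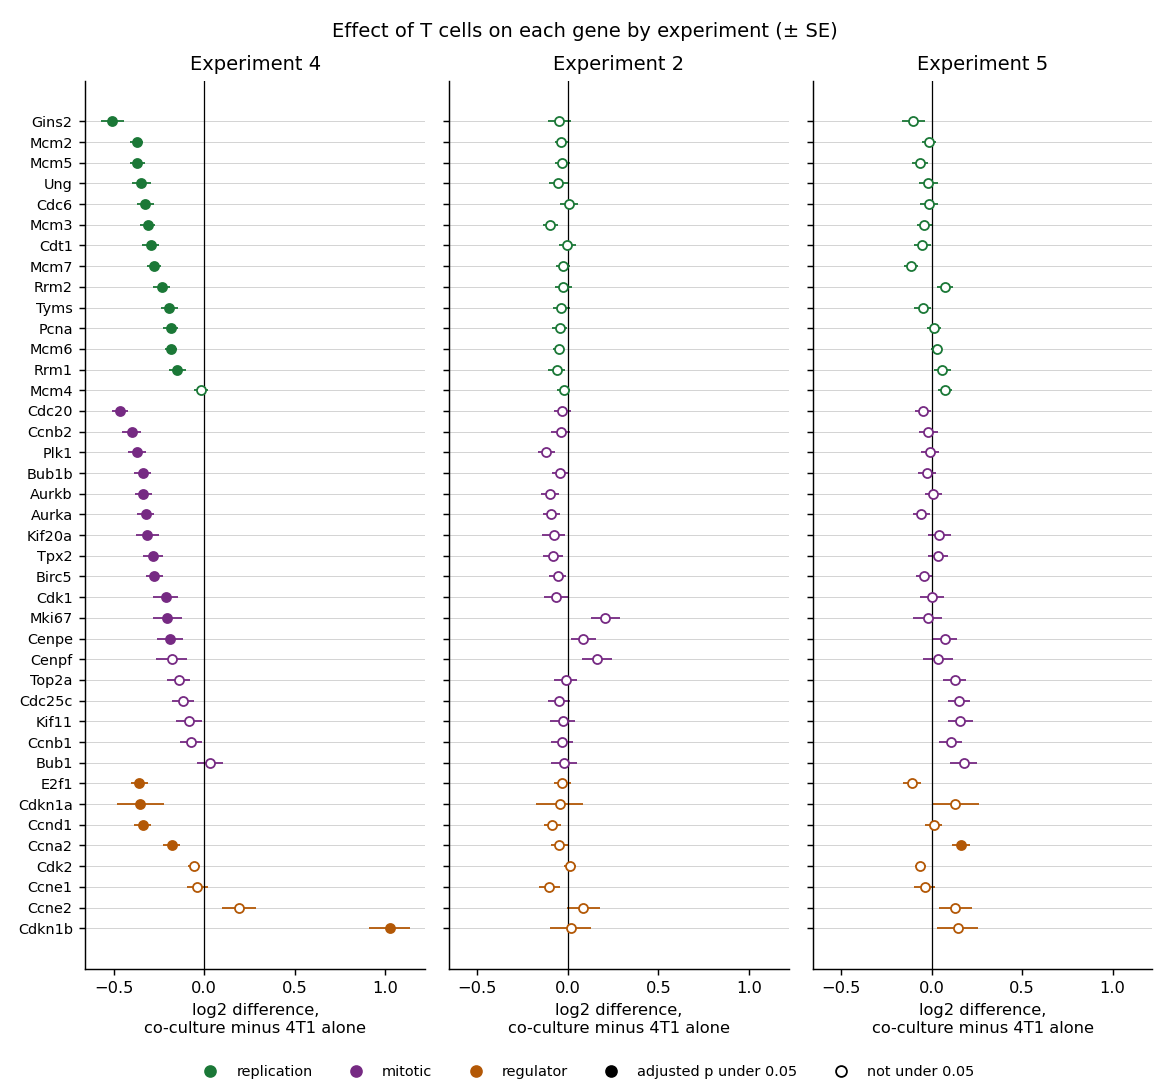
Log2 difference, co-culture minus 4T1 alone, with its SE for each of the 40 genes in experiments 4, 2 and 5, the experiments with all 5 substrates in both arms. Colours are roles and filled points passed an adjusted p of 0.05. In experiment 4, 29 filled points lie below 0 and Cdkn1b lies at 1.02 (31 points passed as higher when scaled to carcinoma epithelial markers), whereas in experiments 2 and 5 the filled point is Ccna2 alone.

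The other experiments gave few calls. No member passed in experiment 1, where 3.17% of all genes did, nor in experiment 2, where 1.35% did. Experiment 1 had only 2 pairs of wells. Co-cultures there lay wholly below 4T1 alone for 5 of 14 replication and 9 of 18 mitotic genes, beside 17.9% of all genes. They lay wholly above for 0 and 1, beside 18.7%. The mean change over its pairs was −0.06 in both the replication and the mitotic level. The median difference in experiment 2 was −0.04 over replication and −0.04 over mitotic genes. Experiment 5 gave 1 member, with 4.37% of all genes as background. Ccna2 had 314, 340, 324, 340 and 322 per M in co-cultures on collagen I, collagen IV, fibronectin, vitronectin and uncoated plastic, against 297, 311, 305, 278 and 274 per M in 4T1 alone. Every co-culture exceeded every culture of 4T1 alone, but the difference was small (0.16 ± 0.05, SE; adjusted p = 0.0466, limma) and the adjusted p ranged from 0.0351 to 0.174 over 6 alternatives. Leaving out 1 library in turn gave 0 to 6 members and changed the count for 32 of the 40 libraries. The single pair of experiment 3 differed by −0.02 in replication level and by 0.001 in mitotic level.

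The T cell effect of experiment 4 differed from the mean effect of experiments 2 and 5 for 31 members, 30 lower and 1 higher. Among all genes 50.7% passed this test of the difference. The count was 13 of 14 for replication genes, 13 of 18 for mitotic genes and 5 of 8 for regulators. Scaled to carcinoma epithelial markers, the median was 0.15 over the members and 0.37 over all genes. On that scale 21 members passed and all 21 were higher. The share of all genes that passed there is not given here, so this count has no background.

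Averaged over the 5 substrates and all experiments, 11 members passed and all 11 were lower in co-culture. The model of 10 group means called 25.2% of all genes, 12.2% downwards. Birc5 averaged 138 ± 13.3 per M in co-cultures (SD, n = 18) and 151 ± 6.34 per M in 4T1 alone (SD, n = 22), a log2 difference of −0.13 ± 0.04 (SE; adjusted p = 0.015, limma). Cdc20, Plk1, Aurka, Kif20a, Aurkb and Bub1b differed by −0.16 to −0.12. The replication genes were Gins2 at −0.17, Mcm3 at −0.14 and Mcm7 at −0.12, and the regulator was Ccnd1 at −0.14. Mcm5 at −0.14, E2f1 at −0.12, Cdk1 at −0.10, Pcna at −0.06, Cdkn1a at −0.07, Ccnb1 at −0.02, Mki67 at 0.03 and Cdkn1b at 0.35 did not pass, the last with an adjusted p of 0.0518.

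These averages rested on experiment 4. Without it no member passed in limma, where 2.92% of all genes did. Cdkn1b averaged 55.9 ± 10.6 per M in the 13 other co-cultures (SD, n = 13) and 53.2 ± 6.38 per M in 4T1 alone (SD, n = 22). With the experiment as a block, 25 members passed, 24 lower and Cdkn1b higher (0.33 ± 0.10, SE; adjusted p = 0.00723, limma), beside 45.8% of all genes. With the block and without experiment 4, Birc5 was the 1 member that passed (−0.07 ± 0.02, SE; adjusted p = 0.0483, limma). Without experiment 3 the fit without the block called 1 member, Mcm7, although the median differences, −0.11 over replication and −0.10 over mitotic genes, were as large as with it. Without experiment 4 both medians were −0.02. Leaving out the collagen I co-culture of experiment 4 left 3 members, and leaving out the collagen IV co-culture of experiment 2 gave 17. Scaled to carcinoma epithelial markers no member passed, and with the block on that scale 21 did, all higher. The median in that blocked fit was 0.08 over the members and 0.14 over all genes, whose share that passed is not given here.

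Further replication and mitotic genes moved likewise in experiment 4, whereas the last 2 lists below moved both ways. Among all genes 64.3% passed there, 32% as lower, and the shares of the last 2 lists below are near that. Of 30 further replication genes 22 were lower and none was higher, with a median of −0.22. They include Chaf1a, a histone chaperone subunit at the fork, at −0.47, the flap nuclease Fen1 at −0.70 and the helicase cofactor Cdc45 at −0.35. Of 32 further mitotic genes 17 were lower and 1 was higher, with a median of −0.18. Mybl2, a factor that activates mitotic genes, was at −0.45, Cdca8, in a complex with Aurora B, at −0.39, and Espl1, separase, at −0.43. Of 19 further cyclin, kinase, RB and E2F genes 7 were lower and 5 higher. Rb1, the retinoblastoma gene, stood at 1.32, Ccng2, an atypical cyclin, at 1.44 and the inhibitor Cdkn2c at −0.52. Of 15 targets of p53, 7 were lower and 4 higher. The highest was Trp53inp1 at 4.66, which averaged 1.10 ± 0.364 per M in 4T1 alone (SD, n = 22), and Sesn1 and Ccng1 stood at 2.20 and 0.56. Cdkn1a, also a p53 target, was lower. Averaged over substrates and experiments, 15 of the 30 further replication genes and 6 of the 32 further mitotic genes were lower and none was higher, beside 12.2% of all genes lower. Scaled to carcinoma epithelial markers, 26 of the further replication genes and 27 of the further mitotic genes were higher in experiment 4, where 80.7% of all genes passed. Their medians on that scale were 0.23 and 0.28, below the 0.41 of all genes. Over substrates none of either list passed on it.

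Among mitotic genes, the size of the T cell difference went with transcript length. Over the 18 genes, the difference in experiment 4 had a correlation of r = 0.63 (Spearman rho 0.69) with log2 of merged exon length, and the difference averaged over substrates one of r = 0.78 (rho 0.80). Ccnb2, with 1531 exon bases, and Cdc20, with 1868, had the largest falls in experiment 4. The longest genes were not those that differed least, since Cenpf, with 15433 bases, stood at −0.18 and Mki67, with 10061, at −0.20, against 0.03 for Bub1. Replication genes showed no such relation in experiment 4 (r = −0.01, n = 14), and all 14671 tested genes with a length had r = 0.12 (rho 0.19) there and r = 0.16 (rho 0.30) for the average over substrates. In experiment 2, where no member passed, the mitotic genes had r = 0.72 (rho 0.62) and all genes r = 0.21 (rho 0.35), with Mki67 at 0.21 and Cenpf at 0.16 as the highest. These correlations run across genes measured in the same libraries, which are not independent, and whether length, RNA quality or reads per gene had a part in them was not tested.

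**Figure D3:**
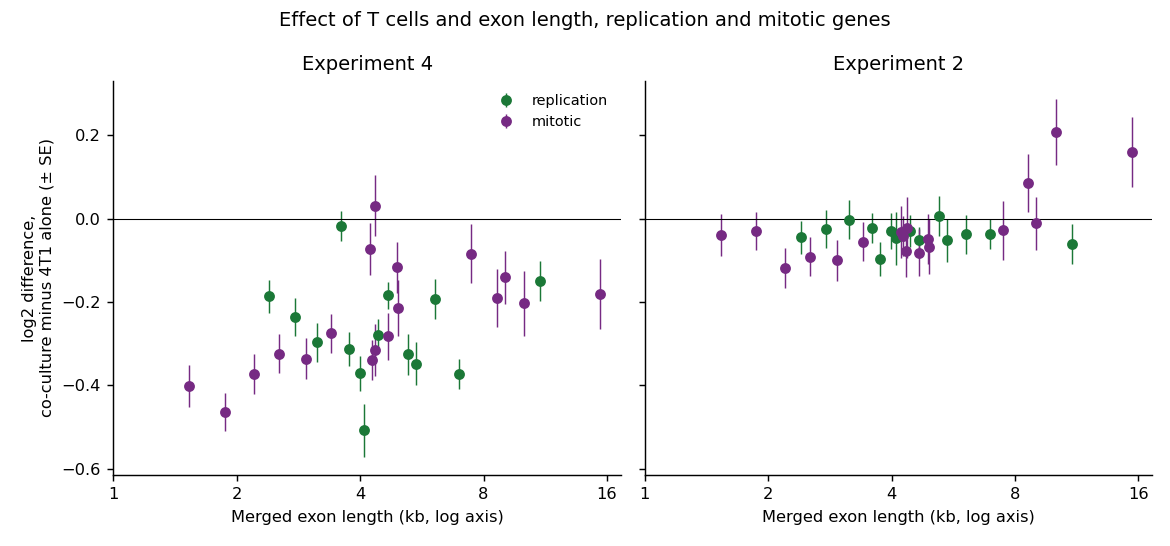
Log2 difference, co-culture minus 4T1 alone, with its SE against merged exon length in kb on a log axis, for the 14 replication genes (green) and the 18 mitotic genes (purple), in experiments 4 and 2. The shortest mitotic genes are the lowest in experiment 4, at −0.46 for Cdc20 and −0.40 for Ccnb2, and the longest are the highest in experiment 2.

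Substrate made no difference that passed for any member in the fit without the experiment as a block. This held for each of the 4 coats against uncoated plastic in both arms, for the F tests over 5 substrates, where 0.129% of all genes passed in co-culture and 0.252% in 4T1 alone, and for the difference in T cell effect among substrates, where 0% did. Of all genes, 0.0952% passed for collagen I and 0.0068% for collagen IV in 4T1 alone, 0.0068% for collagen I and 0.0136% for collagen IV in co-culture, and 0% for fibronectin and vitronectin in either arm. At an unadjusted p of 0.05, collagen IV against uncoated plastic in co-culture gave 2 of the 40 members, or 5%, beside 3.33% of all genes, and the other 7 coat comparisons gave 0. No member passed for T cells on any single substrate either, and 0% of all genes did. With the block, Mcm7 (−0.20 ± 0.05, SE; adjusted p = 0.0383, limma) and E2f1 (−0.24 ± 0.07, SE; adjusted p = 0.0456, limma) passed as lower in co-culture on uncoated plastic, beside 3.78% of all genes.

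Cdkn1a, which encodes p21, had the lowest p of the members in the F test over substrates in co-culture (unadjusted p = 0.0144, limma). On collagen IV it had 11.2, 6.48, 2.76 and 5.04 per M in co-cultures of experiments 2, 3, 4 and 5, against 11.2, 12.7, 9.90 and 9.73 per M in co-cultures on uncoated plastic of experiments 1, 2, 4 and 5. Alone, 4T1 cells on collagen IV had 12.1, 7.33, 6.31 and 5.74 per M in experiments 2 to 5, against 11.6, 14.6, 10.5, 10.1 and 7.82 per M on uncoated plastic in experiments 1 to 5. Within an experiment collagen IV was below uncoated plastic in 3 of 3 pairs in co-culture and in 4 of 4 pairs of 4T1 alone. The lowest value, 2.76 per M, came from the collagen IV co-culture of experiment 4. That library was also the lowest of all 40 for 33 members and had the highest T cell marker sum, 4026 per M. The co-culture differences on collagen IV given below include it.

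On vitronectin Cdkn1a had 13.8, 10.3 and 13.1 per M in co-cultures of experiments 2, 4 and 5, above uncoated plastic in 3 of 3 pairs. In 4T1 alone vitronectin had 14.04, 12.1, 11.3 and 12.6 per M in experiments 2 to 5, above uncoated plastic in 3 of 4 pairs. Vitronectin was the highest substrate in each condition of experiments 3, 4 and 5 that held all substrates, and collagen I in experiment 2. Fibronectin was below uncoated plastic in 3 of 4 pairs in co-culture and in 5 of 5 pairs of 4T1 alone.

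**Figure D4:**
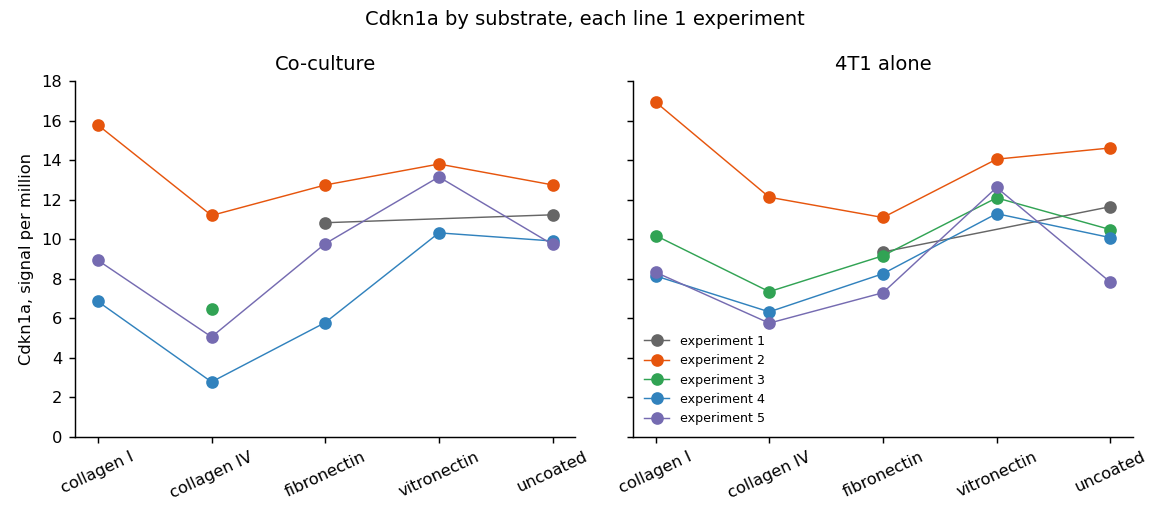
Cdkn1a signal per M on each substrate in co-culture (left) and 4T1 alone (right), with 1 line per experiment and 1 point per library. Collagen IV is the lowest point of each full line in co-culture, down to 2.76 per M in experiment 4, and experiment 2 lies above the others.

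The tests of this pattern depended on the block. Collagen IV against uncoated plastic in co-culture gave −0.81 ± 0.27 (SE; adjusted p = 0.987, limma) without the block and −0.78 ± 0.16 (SE; adjusted p = 0.0193, limma) with it, beside 0.286% of all genes. In 4T1 alone the same comparison gave −0.45 ± 0.25 (SE; adjusted p = 1, limma), and −0.43 ± 0.10 (SE; adjusted p = 0.0494, limma) in a blocked fit of 4T1 alone. The F test over substrates in co-culture gave Cdkn1a an adjusted p of 0.0058 with the block in limma, where 1.6% of all genes passed, and 0.000845 to 1 over 16 alternatives. Over 4T1 alone the blocked F test gave 4 members, beside 9.82% of all genes: Cdkn1a (adjusted p = 0.0057, limma), Ccnd1 (0.0167), Tpx2 (0.0173) and Kif20a (0.0333). The adjusted p of Cdkn1a was 0.0057 to 1 over 17 alternatives there.

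Ccnd1 followed a similar order of substrates in 4T1 alone. It was below uncoated plastic in 4 of 4 pairs on collagen IV and 5 of 5 on fibronectin, and above it in 4 of 4 on vitronectin. In experiment 3, for instance, the collagen IV well had 1248 per M, the fibronectin well 1247 and the vitronectin well 1367, against 1338 per M in the uncoated well. The mean log2 differences over pairs were −0.10, −0.09 and 0.06, small beside those of Cdkn1a.

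In 4T1 alone, an F test over the 5 experiments passed for 29 of the 40 members, 9 of 14 replication genes, 12 of 18 mitotic genes and all 8 regulators. Of all genes 61.4% passed, so the members' share is not far from that of genes at large. Without experiment 2 the count was 19 members, and without experiment 5 it was 16. Experiments took a median of 56.2% of the variance of replication genes, 44.4% of mitotic genes and 59.5% of regulators, against 47.8% over all genes, and substrates took 11.6%, 20.0%, 19.8% and 16.4%. Each factor was fitted alone, and over 22 libraries a factor with 5 levels takes some share even without an effect. For 7 of the 40 members, Mcm7, Gins2, Rrm1, Bub1b, Cenpe, Tpx2 and Ccnd1, substrates took the larger share.

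Experiment 5 was the lowest experiment for several genes of both sets. Cdt1 had 108, 102, 95.8, 113 and 101 per M in experiment 5 on collagen I, collagen IV, fibronectin, vitronectin and uncoated plastic, and 113 to 149 per M in all other cultures of 4T1 alone (adjusted p = 2.7e-06, limma F test). Mcm2 averaged 205 ± 12.5 per M in experiment 5 (SD, n = 5) and 239 to 258 per M in the other 4 (adjusted p = 1.3e-05). Cdc20 averaged 162 ± 7.96 per M in experiment 5 (SD, n = 5) and 182 to 195 per M in the other 4 experiments, and Plk1 and Aurka were lowest there too. Against these, Cenpf, Bub1, Ccne2 and Cdkn1b were highest in experiment 5. Ccne2, which encodes a cyclin E, averaged 23.8 ± 2.35 per M there (SD, n = 5), and 16.9 to 19.9 per M elsewhere.

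Experiment 2 was the highest for Cdkn1a, Ccne1, Cdt1 and E2f1. Cdkn1a averaged 13.8 ± 2.28 per M in experiment 2 (SD, n = 5), against 8.35 to 10.5 per M in the other experiments. Ccne1, the other cyclin E, averaged 14.9 ± 0.641 per M there (SD, n = 5), and 10.6 to 13.6 per M in the others. Ccne1 and Ccne2 thus ran in opposite order over experiments 2 and 5. Within 4T1 alone, residuals were also taken from a fit of both substrate and experiment, which removes the mean shifts between experiments. Their median correlation was 0.29 over pairs of replication genes, 0.19 over pairs of mitotic genes and −0.15 between the sets. These are descriptions over 22 libraries that share experiments, and the sign differed within and between the sets.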

How the data were processed

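RNA of 40 wells was made into TruSeq libraries and sequenced. Per the submitters' processing notes, STAR 2.6, featureCounts and edgeR 3.31.7 were used with mm10; strand handling is not given in the sources used here. The authors deposited 1 normalised signal per gene and library, summing to 956225 to 1037118 per library. Dividing by the value of 1 read gave whole read counts for 100% of the deposited values (within 0.01), hence depth: 18.95 to 239.13 M reads, median 34.6. The limit of 3 reads was 0.0124 to 0.158 per M. Reads carry no molecular identifiers, so such limits cover counting error only. Of 21349 lines 21347 genes were kept; 1 lacked a number, 1 was a repeat, and 19 symbols appeared as dates.

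Values were tested as log2(value + 1) with limma 3.58.1 (R 4.3.3), keeping 14701 genes with a value of 1 in at least 3 libraries. P-values were Benjamini-Hochberg adjusted over all of them, threshold 0.05. Fold changes on this scale understate low genes. The 10-group fit used 40 libraries; effects per experiment had terms for substrate and experiment; experiments were compared in the 22 libraries of 4T1 alone. edgeR 4.0.16 ran on the recovered reads as an alternative, and both tools were tested on simulated data. Other alternatives were a pseudocount of 0.5, no filter, quantile or carcinoma epithelial scaling, the experiment as replicate block, and libraries or experiments left out. Leaving out experiments 1, 2, 3 or 5, and scaling together with the block, were chosen after seeing the data. The replicate number is the experiment: residuals had a median correlation of 0.478 over 156 library pairs of the same experiment and −0.131 over 562 other pairs, and 37 of 40 libraries were closest to one of their own experiment. P-values measure the spread between these wells, and which spread depends on the fit. In the 10-group fit without the block, the wells of a group came from different experiments. In the fit of effects per experiment, the spread was pooled over all 40 libraries, while each T cell effect rests on wells of 1 experiment.

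Genes were named by role if past the threshold, largest differences first, plus Pcna, Mcm5, Mki67, Ccnb1, Cdk1, E2f1, Ccnd1, Cdkn1a and Cdkn1b. The members and lists were chosen with earlier results of these data known. Exons of 12 members overlap another gene, so their reads may be shared. Lengths came from GENCODE vM21.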

Additional observations from a re-analysis of the deposited data

Results flagged for a closer look

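Within each group of 4 or 5 libraries, a library was singled out where its gap to the nearest other was large for the group's range by Dixon's criterion. This held for 26 of the 320 sets of member and group examined, where chance gives about 5%. In co-cultures on collagen IV, Cdc6 had 38.28 per M in experiment 4, below the 55.89 to 58.3 per M of the other experiments. Rrm2 had 181.7 per M in experiment 4, below the 272.9 to 289.3 per M of the other experiments. Mki67 had 493.9 per M in experiment 4, below the 721 to 733.1 per M of the other experiments. Ccnb2 had 75.43 per M in experiment 4, below the 122.3 to 129.8 per M of the other experiments. Kif20a had 86.35 per M in experiment 4, below the 133.9 to 138.8 per M of the other experiments. Tpx2 had 128.8 per M in experiment 4, below the 200 to 209.7 per M of the other experiments. Cdkn1b had 187.8 per M in experiment 4, above the 44.85 to 62.38 per M of the other experiments. In co-cultures on fibronectin, Mcm6 had 373.8 per M in experiment 5, above the 320.3 to 327.9 per M of the other experiments. Cdc6 had 48.44 per M in experiment 4, below the 55.94 to 57.05 per M of the other experiments. Gins2 had 20.3 per M in experiment 4, below the 26.48 to 27.63 per M of the other experiments. In co-cultures on uncoated plastic, Cdc6 had 48.58 per M in experiment 4, below the 56.81 to 58.24 per M of the other experiments. Top2a had 1052 per M in experiment 5, above the 837.4 to 852.9 per M of the other experiments. Tpx2 had 173.4 per M in experiment 4, below the 198.4 to 203.5 per M of the other experiments. Cdkn1b had 108.8 per M in experiment 4, above the 47.79 to 57.62 per M of the other experiments. The T cell marker sum was highest in the co-cultures of experiment 4 as well, and its part in these values was not tested.

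In 4T1 alone on collagen I, Mcm4 had 232 per M in experiment 5, above the 203.7 to 208.4 per M of the other experiments. Mcm6 had 366 per M in experiment 5, above the 339.4 to 342.8 per M of the other experiments. Aurkb had 95.21 per M in experiment 2, below the 102.9 to 103.8 per M of the other experiments. Birc5 had 162.3 per M in experiment 3, above the 149.1 to 150.6 per M of the other experiments. In 4T1 alone on collagen IV, Mcm3 had 319.5 per M in experiment 5, below the 351.3 to 356 per M of the other experiments. Mki67 had 793.1 per M in experiment 5, above the 643 to 649.3 per M of the other experiments. Aurkb had 97.37 per M in experiment 2, below the 99.31 to 99.62 per M of the other experiments. In 4T1 alone on fibronectin, Aurkb had 107 per M in experiment 1, above the 98.19 to 100.2 per M of the other experiments. Cdkn1b had 63.85 per M in experiment 5, above the 46.45 to 50.52 per M of the other experiments. In 4T1 alone on uncoated plastic, Ung had 34.03 per M in experiment 1, above the 27.86 to 29.32 per M of the other experiments. Cdc20 had 151.7 per M in experiment 5, below the 182.5 to 192.5 per M of the other experiments. In 4T1 alone on vitronectin, Cdc20 had 172.7 per M in experiment 5, below the 187.5 to 188.2 per M of the other experiments.

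The T cell effect of experiment 4 differed from the mean effect of experiments 2 and 5 for 13 replication genes, 13 mitotic genes and 5 regulators. This was by a test of that difference in limma, which 50.7% of all genes passed. Scaled to carcinoma epithelial markers, 21 members passed, all of them higher.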

How the results depend on the processing

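Shares of all genes that passed are given in brackets where available, and counts without one have no background here. For T cells averaged over substrates, 11 members passed (25.2%). The count was 25 with the experiment as replicate block (45.8%) and 0 without experiment 4 (2.92%). It was 1 with the block and without experiment 4, and 1 without experiment 3. With the block it was 23 in edgeR and 19 with quantile scaling. Carcinoma epithelial scaling gave 0, and that scaling with the block gave 21. With the block, T cells on uncoated plastic gave 2 members (3.78%), 4 without experiment 4 and 3 in edgeR, and on collagen IV 1 in edgeR. Coats gave 0 members, with these exceptions. Collagen IV gave 1 in the blocked fit of 4T1 alone, and collagen I gave 1 in co-culture with epithelial scaling and block. In co-culture collagen IV gave 1 with the block in limma (0.286%), in edgeR and with epithelial scaling, and 1 without experiment 2. The F test over substrates gave 4 members in the blocked fit of 4T1 alone (9.82%). For 4T1 alone it gave 1 with the block without experiment 4 and 1 with the block and epithelial scaling. In co-culture it gave 1 in each of these 4 blocked fits: limma (1.6%), without experiment 4, edgeR, epithelial scaling. The F test over experiments gave 19 without experiment 2 and 16 without experiment 5, against 29 (61.4%). Experiment 2 gave 1 under epithelial scaling, and experiment 5, with 1, gave 2 in edgeR and 0 with no filter, quantile or epithelial scaling, or without the deepest library. Leaving out 1 library gave 3 to 17 over substrates, 26 to 31 over experiments, 0 to 2 in experiment 2, 26 to 32 in experiment 4, 0 to 6 in experiment 5, 26 to 32 for experiment 4 against 2 and 5, and 0 to 0 in the other comparisons. Directions reversed under epithelial scaling alone or with the block, and in none of the other alternatives run over all libraries or by experiment. As log2 differences over substrates they were Mcm3 0.0492, Mcm7 0.0645, Gins2 0.00381, Cdc20 0.0235, Plk1 0.0317, Aurka 0.0348, Aurkb 0.0583, Bub1b 0.0637, Birc5 0.0536, Kif20a 0.0494 and Ccnd1 0.044. With the block they were Pcna 0.0974, Mcm3 0.038, Mcm7 0.0439, Ccnb1 0.17, Cdc20 0.0175, Plk1 0.0366, Aurka 0.0394, Aurkb 0.0541, Bub1b 0.0541, Birc5 0.0487, Kif20a 0.0575 and Ccnd1 0.0537. In experiment 4 they were Pcna 0.275, Mcm2 0.0884, Mcm3 0.149, Mcm5 0.0915, Mcm6 0.278, Mcm7 0.182, Cdc6 0.13, Cdt1 0.163, Rrm1 0.312, Rrm2 0.226, Tyms 0.265, Ung 0.0994, Mki67 0.259, Ccnb1 0.387, Ccnb2 0.0577, Cdk1 0.248, Plk1 0.0876, Aurka 0.134, Aurkb 0.122, Bub1b 0.121, Birc5 0.184, Cenpe 0.271, Kif20a 0.144, Tpx2 0.178, E2f1 0.095, Ccnd1 0.123, Ccna2 0.282 and Cdkn1a 0.0441. The cause of the other changes was not tested. Depth was at least 18.95 M reads and all members exceeded 1 per M, and the smallest groups held 3 wells.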
